A study of Mus musculus with 6 samples.

Results

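The genes described here are 10 transcription factor and immediate early genes: the Fos family (Fos, Fosb, Fosl1 and Fosl2), the Jun family (Jun, Junb and Jund), and Egr1, Atf3 and Btg2. They were taken by symbol from a table of read counts of mouse ovaries, in which all 10 were present among 35415 genes and all 10 were among the 16841 genes expressed highly enough to be tested. The tested ovaries came from Rnf111+/- mice (3 libraries) and were compared with ovaries of wild-type mice (3 libraries). Both genotypes were sampled at 3 months of age, in the estrus phase of the cycle. Each library carries the name of its own mouse, so replicates were treated as separate animals. The heterozygous mice were made with CRISPR-Cas9 to study deleterious variants of RNF111 in premature ovarian insufficiency; 2 models were generated, and the sources used here give neither the strain, the edited position nor which model was sequenced. Rnf111 encodes a ubiquitin ligase that promotes TGF-beta family signalling. Whole ovaries were sequenced, so a lower level can reflect fewer cells of a type or less RNA per cell, and these cannot be told apart.

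AP-1 is a family of dimers of bZIP proteins: Jun proteins pair with each other or with Fos proteins, and the dimers bind DNA elements with the letters TGANTCA. Fos, Jun, Egr1, Atf3 and Btg2 belong to the immediate early genes, whose transcription starts within minutes of a hormone, growth factor or stress signal without new protein synthesis, and whose mRNAs are short-lived. In rat granulosa cells, the steroid-producing cells of the follicle, gonadotropins induce several AP-1 genes, and Fosl2 and Jund products persist in cells that have become luteal.

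Libraries were close in depth, at 38261449 to 39474515 counts, and levels are given as CPM, read counts scaled to library size with edgeR's TMM method. Rnf111 itself was at 44.6 ± 0.394 CPM in Rnf111+/- ovaries and at 53.9 ± 0.477 CPM in wild-type ovaries (SD, n = 3 each), and its fall passed edgeR's quasi-likelihood test (log2 fold change -0.27 ± 0.07 (SE), adjusted p = 0.0400); omitting any library other than wild-type replicate 3 ended that call. Wild-type replicate 3 stood apart from the other wild-type libraries: across genes, its log2 CPM had correlations of 0.974 and 0.975 with them, against 0.989 between those libraries and 0.986 to 0.989 among the Rnf111+/- libraries. Results that rest on it are therefore also given without it.

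Of the 10 genes, 1 rose in Rnf111+/- ovaries (Fos) and 2 fell (Fosl1 and Btg2), by edgeR's test with Benjamini-Hochberg adjustment over all tested genes. Among all tested genes 9.64% were called, 3.9% as rises and 5.74% as falls. Before adjustment 5 of the 10 genes (Fos, Fosl1, Jun, Atf3 and Btg2) had p under 0.05, as did 25.5% of all tested genes. The groups did not overlap for 6 of the 10 genes, 3 of them higher (Fos, Jun and Atf3) and 3 lower (Fosl1, Jund and Btg2) in Rnf111+/- ovaries; over all tested genes, 32% did not overlap, 15.1% higher and 16.9% lower. The median log2 fold change of the 10 genes was 0.08, against -0.008 for all tested genes. The Fos family thus held called changes in both directions, with Fos higher and Fosl1 lower.

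**Figure D1:**
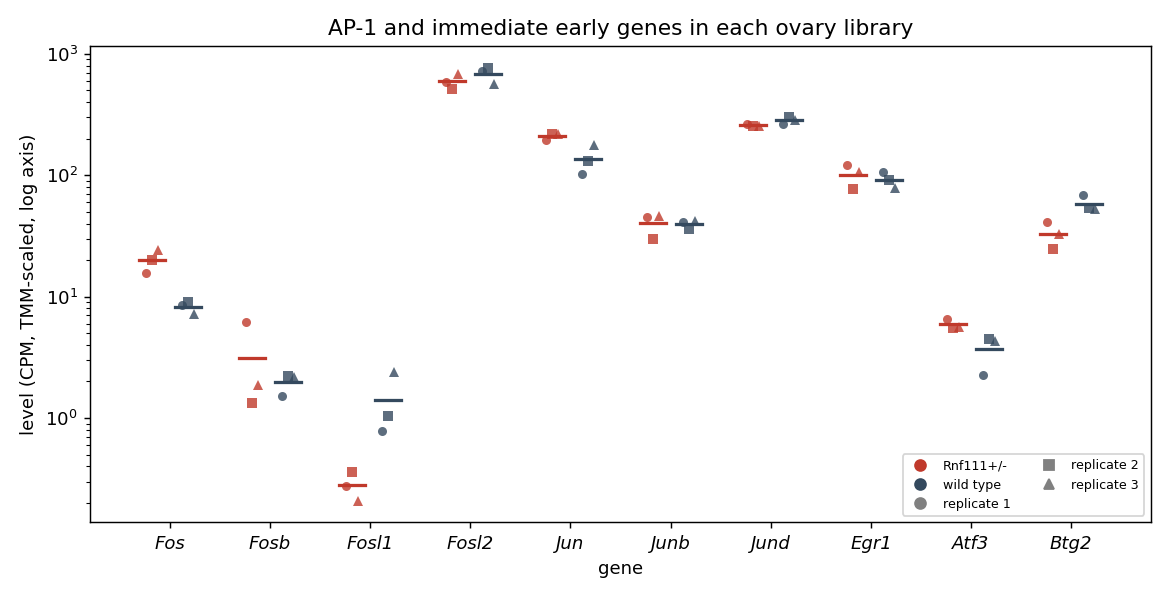
Level of each gene (CPM, log axis) in each library, with Rnf111+/- ovaries on the left in red and wild-type ovaries on the right in dark blue; marker shape gives the replicate number and bars give group means. The 3 Rnf111+/- libraries lie above the wild-type libraries for Fos and below them for Fosl1 and Btg2, while the Fosl2 points of both genotypes overlap.

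Fos, the founding member of its family and a partner of Jun proteins, was at 15.8, 20.0 and 24.1 CPM in Rnf111+/- libraries, against 8.59, 9.02 and 7.20 CPM in wild-type libraries. Every Rnf111+/- library was above every wild-type library. The means were 19.9 ± 4.16 and 8.27 ± 0.949 CPM in Rnf111+/- and wild-type ovaries (SD, n = 3 each), a 2.41-fold rise, with a log2 fold change of 1.27 ± 0.18 (SE, adjusted p = 0.00472). The call held in all 6 fits that left out 1 library, with log2 fold changes from 1.11 to 1.41 and adjusted p up to 0.0261. The libraries held 633, 782 and 922 Fos counts in Rnf111+/- ovaries and 329, 348 and 282 in wild-type ovaries.

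Fosl1, which encodes FRA1, a Fos protein that lacks the transactivation domain found in FOS, had the lowest level per kilobase of exon of the 10 genes in Rnf111+/- ovaries. The Rnf111+/- libraries held 11, 14 and 8 Fosl1 counts, and the wild-type libraries held 30, 40 and 94. These counts correspond to 0.274, 0.358 and 0.209 CPM in Rnf111+/- ovaries, against 0.783, 1.04 and 2.40 CPM in wild-type ovaries. All Rnf111+/- libraries were low, and wild-type replicate 3 was well above the other wild-type libraries. The mean was 0.280 ± 0.0745 CPM in Rnf111+/- ovaries and 1.41 ± 0.870 CPM in wild-type ovaries (SD, n = 3 each), so the Rnf111+/- mean was 19.9% of the wild-type mean. The fitted log2 fold change was -2.31 ± 0.54 (SE, adjusted p = 0.0319), and the interval of 2 standard errors ran from -3.39 to -1.24. The ratio of summed counts, 33 in Rnf111+/- against 164 in wild-type libraries, was -2.31 on the log2 scale. Its exact 95% counting interval of -2.89 to -1.76 covers counting error only and not the spread between animals.

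The Fosl1 call was less stable than its direction. Without wild-type replicate 3 the log2 fold change was -1.68 (adjusted p = 0.0537). The ratio of summed counts was then -1.66 with a counting interval of -2.31 to -1.05, from 33 against 70 counts. With single libraries omitted, the call held only without wild-type replicate 1 (adjusted p = 0.0358), and adjusted p reached 0.122 without Rnf111+/- replicate 3. It was also lost with limma-voom (0.0604), while the direction was downward in every fit that kept the gene. In wild-type replicate 3 the summed level of 8 oviduct markers was also high, at 326 CPM, against 111 and 130 CPM in the other wild-type libraries and 150 to 153 CPM in Rnf111+/- libraries; of these markers Krt5 was at 0 in at least 1 library, and their part in the Fosl1 result was not tested. Exons of Fosl1 overlap those of Ccdc85b on the opposite strand in the GENCODE M21 annotation, and whether strand was used in counting is not stated. Ccdc85b was at 35.3 ± 4.35 CPM in Rnf111+/- ovaries and 46.3 ± 6.76 CPM in wild-type ovaries (SD, n = 3 each), a log2 fold change of -0.39 ± 0.13 that did not pass (adjusted p = 0.104).

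Fosl2, which encodes FRA2, was at 584, 512 and 682 CPM in Rnf111+/- libraries, against 727, 770 and 563 CPM in wild-type libraries. The groups overlapped, with wild-type replicate 3 inside the Rnf111+/- range. The log2 fold change was -0.21 ± 0.14 (SE, adjusted p = 0.399), and the interval of 2 standard errors on each side ran from -0.50 to 0.07, which leaves out a rise or a fall as large as those of Fos and Fosl1. Without wild-type replicate 3 it was -0.33 (adjusted p = 0.0704).

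Fosb, an inducible gene best known from neurons, was at 6.20, 1.33 and 1.88 CPM in Rnf111+/- libraries, against 1.51, 2.20 and 2.20 CPM in wild-type libraries. The higher Rnf111+/- mean came from replicate 1, and the remaining libraries of both genotypes overlapped. The log2 fold change was 0.67 ± 0.56 (SE, adjusted p = 0.514) with all libraries and -0.29 without Rnf111+/- replicate 1 (adjusted p = 0.671).

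The share of each family member was set out per kilobase of exon, using exon lengths of GENCODE M21. Fosl2 made up 85.6 to 88.5% of Fos family transcripts in Rnf111+/- libraries and 92.7 to 94.6% in wild-type libraries. Fos made up 9.83 to 13.8% in Rnf111+/- libraries and 4.55 to 4.88% in wild-type libraries. Fosl1 made up 0.127 to 0.285% in Rnf111+/- libraries and 0.485 to 1.88% in wild-type libraries. The family as a whole was at 70.3 ± 9.84 CPM per kb in Rnf111+/- ovaries and 75.5 ± 11.3 CPM per kb in wild-type ovaries (SD, n = 3 each), with overlapping libraries. The share of Fos was higher in every Rnf111+/- library while the totals overlapped, and Fosl2 was the major transcript in all 6 libraries.

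**Figure D2:**
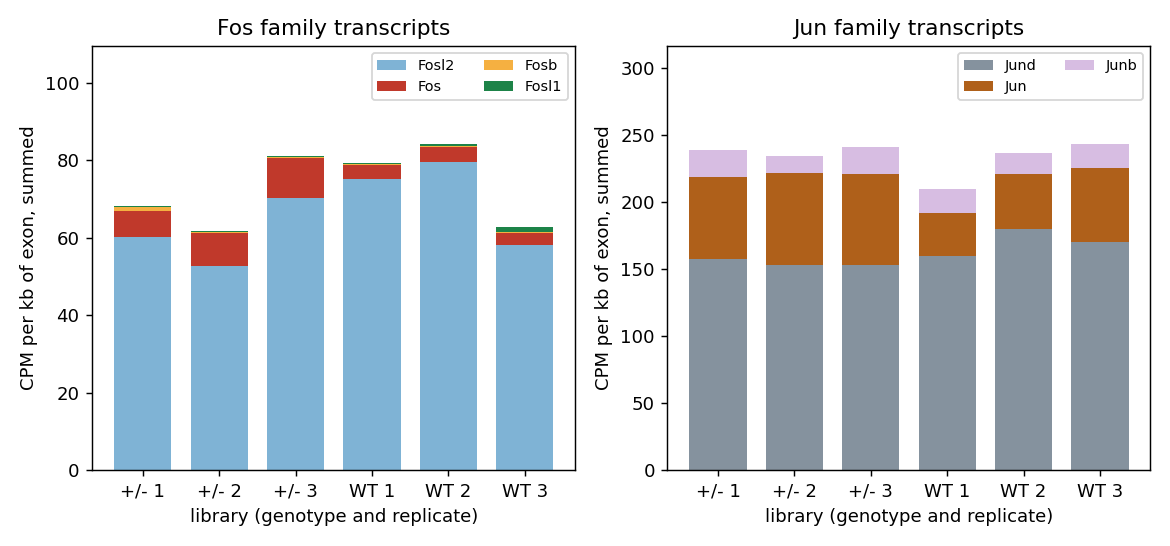
Summed level of Fos family (left) and Jun family (right) transcripts in CPM per kb of exon for each library, with Rnf111+/- libraries to the left of wild-type libraries and each colour a gene. Fos takes 9.83 to 13.8% of the Fos family bar in Rnf111+/- libraries and 4.55 to 4.88% in wild-type libraries, and Fosb and Fosl1 are thin slices.

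Among the Jun genes, Jun was at 196, 219 and 217 CPM in Rnf111+/- libraries, against 103, 131 and 177 CPM in wild-type libraries. Jun encodes the main AP-1 partner of FOS. All Rnf111+/- libraries were above all wild-type libraries, and the wild-type libraries were spread more widely, with replicate 3 nearest to the Rnf111+/- range. The log2 fold change was 0.62 ± 0.18 (SE), which missed the threshold (adjusted p = 0.0822). It was 0.86 and passed when wild-type replicate 3 was left out (adjusted p = 0.000382), and it also passed with DESeq2 on all libraries (0.00410). Across the refits, Jun passed in 1 of the 6 that left out a library and in 2 of the 7 others. Adjusted p reached 0.222 with a library left out and 0.193 in the other refits. Junos, an antisense transcript that overlaps Jun, was at 5.28 ± 0.982 CPM in Rnf111+/- ovaries and 4.56 ± 0.725 CPM in wild-type ovaries (SD, n = 3 each), with overlapping groups.

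Jund, a Jun gene that is expressed in resting cells, was at 263, 256 and 255 CPM in Rnf111+/- libraries, against 267, 300.4 and 284 CPM in wild-type libraries. The groups were close without overlapping, and the log2 fold change of -0.14 ± 0.07 (SE) did not pass (adjusted p = 0.254). Junb, whose product can oppose JUN in cell growth, was at 45.3, 29.6 and 46.4 CPM in Rnf111+/- libraries, against 41.2, 35.9 and 41.7 CPM in wild-type libraries. The wild-type values lay within the Rnf111+/- range, with a log2 fold change of 0.03 ± 0.17 (SE, adjusted p = 0.938) and an interval of 2 standard errors from -0.31 to 0.37. Junb shares exonic bases with Prdx2 on the opposite strand, an abundant gene that fell in Rnf111+/- ovaries, with 340 ± 16.2 CPM in Rnf111+/- ovaries and 496 ± 38.3 CPM in wild-type ovaries (SD, n = 3 each; log2 fold change -0.54, adjusted p = 0.00554). Within the Jun family, Jun took 25.7 to 29.3% of transcripts per kilobase in Rnf111+/- libraries and 15.4 to 22.8% in wild-type libraries, and Jund took 63.4 to 66.0% and 69.8 to 76.1% in Rnf111+/- and wild-type libraries.

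Btg2, an antiproliferative gene that p53 and growth factors induce, was at 41.1, 24.7 and 32.8 CPM in Rnf111+/- libraries, against 68.2, 53.5 and 52.7 CPM in wild-type libraries. Every Rnf111+/- library was below every wild-type library. The means were 32.8 ± 8.18 CPM in Rnf111+/- ovaries and 58.1 ± 8.73 CPM in wild-type ovaries (SD, n = 3 each), a log2 fold change of -0.82 ± 0.19 (SE, adjusted p = 0.0388). Its log2 fold change stayed between -1.02 and -0.65 with single libraries left out. The call held without Rnf111+/- replicate 1 (adjusted p = 0.0286) and was lost in the other 5 fits, with adjusted p from 0.0595 without wild-type replicate 3 to 0.141 without Rnf111+/- replicate 3.

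Atf3, a stress-induced bZIP factor that pairs with Jun proteins, was at 6.60, 5.57 and 5.64 CPM in Rnf111+/- libraries, against 2.27, 4.48 and 4.34 CPM in wild-type libraries. The Rnf111+/- libraries lay above the wild-type libraries, of which replicate 1 was lowest, and the log2 fold change of 0.68 ± 0.27 (SE) did not pass (adjusted p = 0.158). Egr1, a zinc finger factor induced by gonadotropins in the ovary, was at 121, 76.4 and 105 CPM in Rnf111+/- libraries, against 107, 90.9 and 78.2 CPM in wild-type libraries. The groups overlapped throughout, and the log2 fold change was 0.13 ± 0.18 (SE, adjusted p = 0.710), with an interval of 2 standard errors from -0.24 to 0.50 that leaves out a change the size of that of Fos. Rnf111+/- replicate 1 had the highest Fosb, Egr1, Atf3 and Btg2 and the lowest Fos of its group.

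**Figure D3:**
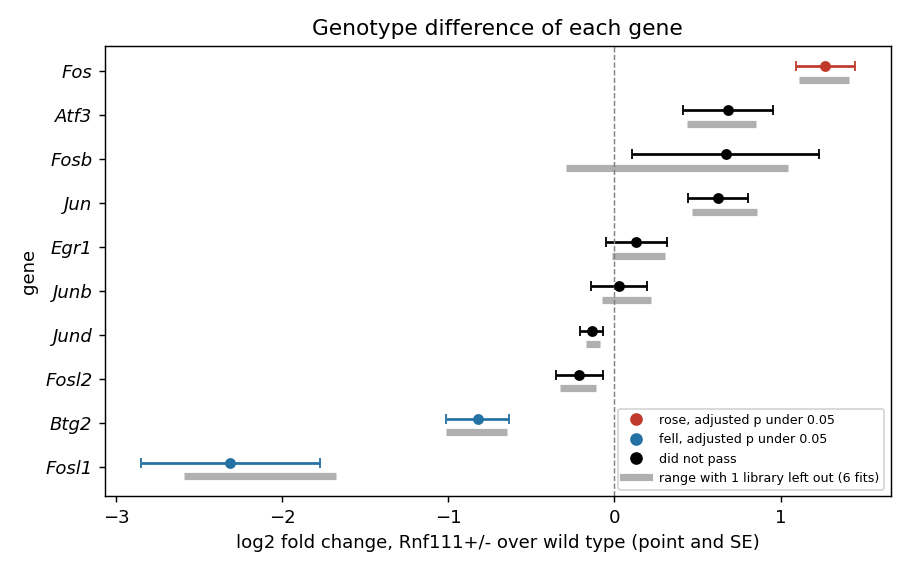
Log2 fold change of each gene, Rnf111+/- over wild type, as a point with its standard error, and in grey the range over the 6 fits that left out 1 library. Fos (1.27) lies to the right of 0 and Btg2 (-0.82) and Fosl1 (-2.31) to the left with their whole grey ranges, while the grey ranges of Fosb, Junb and Egr1 cross 0. Those of Jun, Atf3, Fosl2 and Jund, which did not pass, also do not cross 0.

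Fos was then set against each of the other 9 genes within the same library, as the difference of their log2 CPM, in which scaling and gene length cancel between genotypes. Fos minus Fosl1 was 5.60, 5.61 and 6.53 in Rnf111+/- libraries, against 3.37, 3.06 and 1.56 in wild-type libraries. The Rnf111+/- values were all higher, by 3.25 on average, a 9.53-fold change of the ratio. This size depends on the prior count of 2 added before the logarithm. The difference was 3.39 with a prior count of 0.5 and 3.02 with 5. An exact two-sided permutation test over the libraries gave p = 0.1, the smallest that 3 against 3 libraries can give, and 0.15 after adjustment over the 9 pairs. Without wild-type replicate 3 the difference was 2.70.

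The ratio of Fos to 6 of the 9 genes was higher in Rnf111+/- libraries without overlap, as was its ratio to 85.3% of the 16840 other tested genes. Fos itself did not overlap between genotypes, and nothing particular to these genes is read from the count. After Fosl1 these were Btg2 (a difference of 2.09 in Rnf111+/- against wild-type ovaries), Fosl2 (1.46), Jund (1.39), Junb (1.25) and Egr1 (1.13), each with an exact permutation p = 0.1 and 0.15 adjusted over the 9 pairs. The ratios to Fosb (0.89, exact p = 0.4), Jun (0.59, exact p = 0.2) and Atf3 (0.52, exact p = 0.3) overlapped. No pair passed an adjusted threshold of 0.05, which this number of libraries cannot reach.

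**Figure D4:**
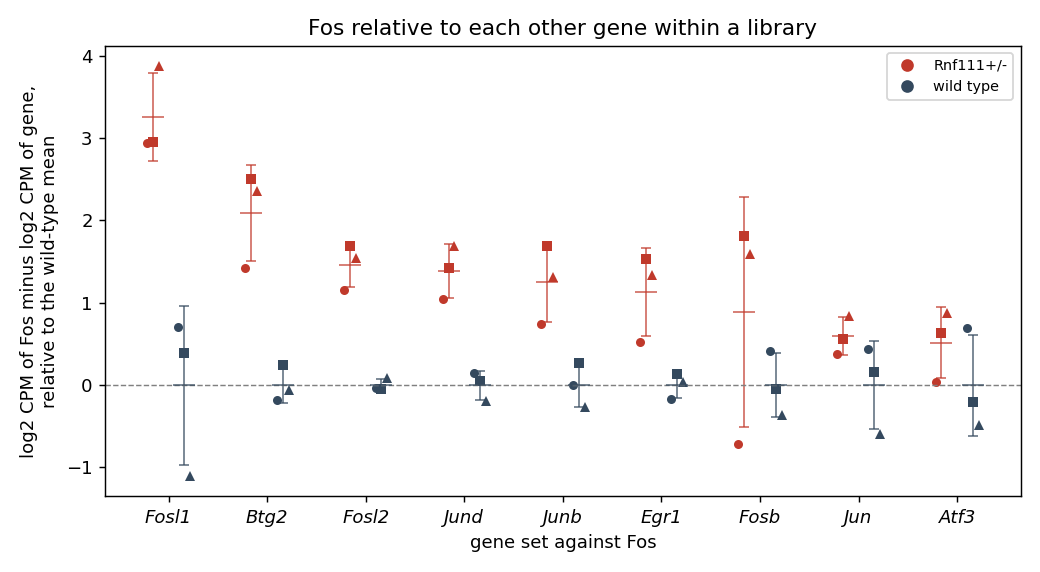
Log2 CPM of Fos minus log2 CPM of each other gene within a library, relative to the wild-type mean of that pair, with Rnf111+/- libraries on the left in red, wild-type libraries on the right in dark blue, and group means with SD. The Rnf111+/- points lie above all wild-type points for Fosl1, Btg2, Fosl2, Jund, Junb and Egr1, and the widest gap is that of Fosl1, at a mean of 3.25.

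Levels of different genes were ordered per kilobase of exon. Jund was first in both genotypes, at 155 ± 2.64 CPM per kb in Rnf111+/- ovaries and 170.0 ± 10.1 CPM per kb in wild-type ovaries (SD, n = 3 each). Jun (66.1 CPM per kb) and Fosl2 (61.2) followed in Rnf111+/- ovaries with overlapping ranges, and in wild-type ovaries Fosl2 (71.0) was above Jun (42.9) without overlap. Egr1, Junb, Btg2 and Fos came next in Rnf111+/- ovaries, at 22.5, 17.6, 11.97 and 8.48 CPM per kb, and each neighbouring pair overlapped. In wild-type ovaries Btg2, Egr1 and Junb lay at 21.2, 20.5 and 17.2 CPM per kb with overlapping neighbours, and Fos was apart from them at 3.52 CPM per kb. Atf3 was at 2.76 CPM per kb in Rnf111+/- ovaries and 1.72 in wild-type ovaries. At the low end, Fosb (0.503 CPM per kb) was above Fosl1 (0.138) in Rnf111+/- ovaries, and Fosl1 (0.692) above Fosb (0.316) in wild-type ovaries, both without overlap.

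Promoter windows are shown for the called genes Fos and Btg2, since cyclic AMP signalling from gonadotropin receptors acts on immediate early genes through cyclic AMP response elements with the letters TGACGTCA or the partial letters TGACG. The windows are the 250 bases before the RefSeq start of each gene in build GRCm38.p6, written 5′ to 3′ on the gene's strand, with matches to either motif on either strand in capitals. The Fos window lies at chr12:85473640-85473889 on the plus strand and the Btg2 window at chr1:134079156-134079405 on the minus strand.
Fos: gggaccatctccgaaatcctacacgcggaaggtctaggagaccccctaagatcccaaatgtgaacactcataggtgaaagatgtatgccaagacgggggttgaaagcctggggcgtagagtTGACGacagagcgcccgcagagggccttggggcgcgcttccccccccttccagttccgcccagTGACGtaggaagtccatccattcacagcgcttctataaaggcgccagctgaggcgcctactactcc
Btg2: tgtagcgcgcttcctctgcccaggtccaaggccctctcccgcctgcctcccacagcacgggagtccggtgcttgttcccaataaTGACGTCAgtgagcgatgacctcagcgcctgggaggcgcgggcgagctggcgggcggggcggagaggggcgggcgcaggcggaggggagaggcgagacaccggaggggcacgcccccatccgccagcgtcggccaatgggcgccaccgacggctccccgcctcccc

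The Fos window held TGACG at 129 to 125 and at 66 to 62 bases before the start, and the Btg2 window held the full TGACGTCA at 166 to 159 bases before the start, which contains TGACG on both strands. Windows were read for 8 of the 10 genes. Fosl1 had no window in the reference used, and Egr1 was left out of the reading. Of the 8 genes, 5 (Fos, Fosb, Junb, Atf3 and Btg2) held TGACG, against 17.8% of all 32851 windows. The full TGACGTCA was in 1 of the 8 and in 1.55% of all windows. The AP-1 letters TGANTCA were in 0 of the 8 and in 6.75% of all windows. The CArG box, the core of the serum response element, was in 0 of the 8 and in 1.47% of all windows. Bases further upstream were not read, and nor was Egr1, so these counts do not show that the genes lack either element. Fos, which rose, and Btg2, which fell, both held TGACG, as did Fosb, Junb and Atf3, which did not pass. A match is a description of these letters and not evidence of a bound site.

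Other immediate early genes were read from a list of 47, of which 46 were tested. In Rnf111+/- ovaries 4 rose and 0 fell by edgeR's test (8 higher and 7 lower at an unadjusted p under 0.05; 7 rose and 2 fell by DESeq2, and 4 and 0 by limma-voom), against 3.9% and 5.74% of all tested genes. The share called was thus near the 9.64% of all tested genes, with -0.04 as the median log2 fold change. Hbegf, a ligand of the EGF receptor, was at 13.2, 9.55 and 12.1 CPM in Rnf111+/- libraries, against 3.94, 4.56 and 1.92 CPM in wild-type libraries, a log2 fold change of 1.74 ± 0.31 (SE, adjusted p = 0.0129). Ccn2, a matricellular gene that TGF-beta and the Hippo pathway regulate, was at 188, 127 and 232 CPM in Rnf111+/- libraries, against 54.3, 74.7 and 39.02 CPM in wild-type libraries (log2 fold change 1.70 ± 0.31, adjusted p = 0.0270). Both were higher in every Rnf111+/- library than in any wild-type library. The smaller rises were those of Zfp36l2, an mRNA decay factor (0.49 ± 0.11, adjusted p = 0.0253), and Tiparp, a mono-ADP-ribosyltransferase (0.41 ± 0.09, adjusted p = 0.0226), as log2 fold changes with SE. The call of Hbegf was lost without Rnf111+/- replicate 1 (adjusted p = 0.0523) or 3 (0.0567). The call of Ccn2 was lost without Rnf111+/- replicate 1 (adjusted p = 0.0729) or 3 (0.0802) and without wild-type replicate 1 (0.0880) or 3 (0.0664), and also without a filter on low counts (0.0931). Zfp36l2 and Tiparp each lost theirs in 3 of the 6 fits, with adjusted p of 0.0975 and 0.0922 without Rnf111+/- replicate 3.

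Several classical members of the list, singled out after their values were seen, did not pass. Nr4a1, an orphan nuclear receptor, was at 55.4 ± 21.9 CPM in Rnf111+/- ovaries and 56.0 ± 8.44 CPM in wild-type ovaries (SD, n = 3 each; log2 fold change -0.01, adjusted p = 0.985). Ier2 was at 30.4 ± 5.41 and 38.9 ± 6.04 CPM in Rnf111+/- and wild-type ovaries (-0.36, adjusted p = 0.194), and Dusp1, a phosphatase of MAP kinases, at 32.6 ± 11.8 and 46.3 ± 13.7 CPM (-0.50, adjusted p = 0.385). Egr2, a relative of Egr1, was at 4.71 ± 1.46 CPM in Rnf111+/- ovaries and 2.83 ± 0.264 CPM in wild-type ovaries (0.73, adjusted p = 0.126). Egr4 was too low to be tested.

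**Figure D5:**
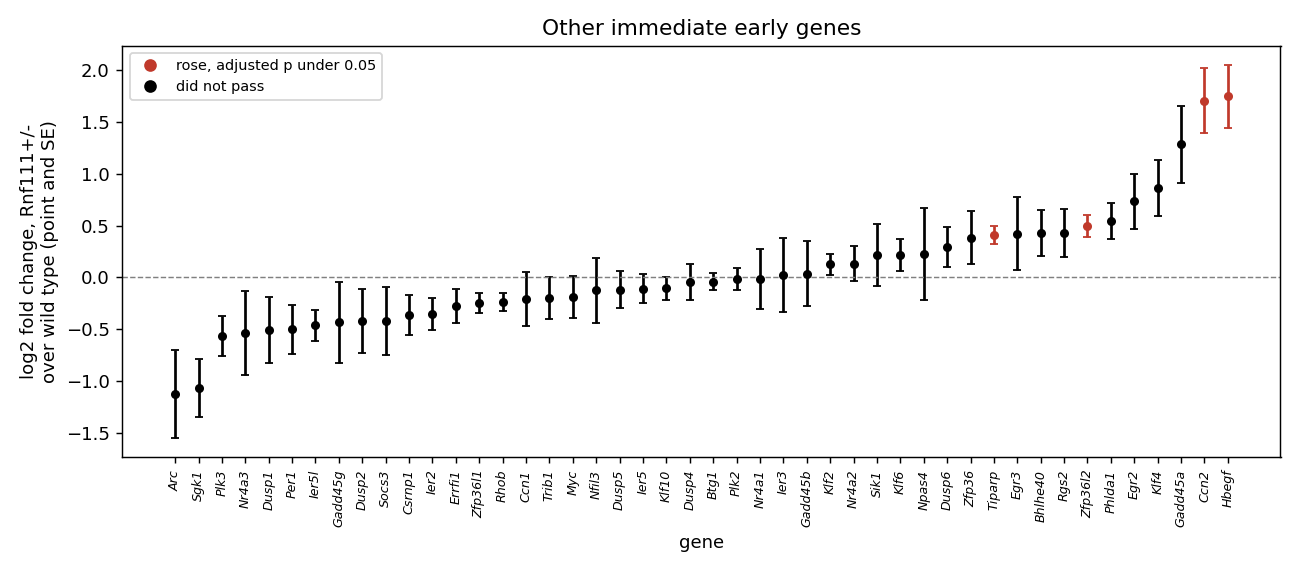
Log2 fold change, Rnf111+/- over wild type, with its standard error for the 46 tested genes of the list of other immediate early genes, in order of size. The 4 that rose (Tiparp, Zfp36l2, Ccn2 and Hbegf) are red, and the rest lie on both sides of 0 around a median of -0.04.

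Among 24 bZIP genes whose products can pair with or resemble AP-1 proteins, 4 rose and 3 fell, against 3.9% and 5.74% of all tested genes, with a median log2 fold change of 0.10. The 4 of smallest p were Atf5, a stress-response factor (30.1, 29.0 and 31.0 CPM in Rnf111+/- and 52.5, 58.7 and 69.1 CPM in wild-type ovaries; 49.98% of the wild-type mean, adjusted p = 0.00140), Creb3 (log2 fold change -0.47, adjusted p = 0.0175), Nfe2l1 (0.32, adjusted p = 0.0298) and the small Maf gene Mafk (0.35, adjusted p = 0.0347). Of 28 genes that act upstream of AP-1, 3 rose and 2 fell, against the same shares of all tested genes (median 0.04). Fbxw7, whose product marks JUN for degradation, was at 62.0 ± 14.99 CPM in Rnf111+/- ovaries and 30.7 ± 1.83 CPM in wild-type ovaries (SD, n = 3 each; log2 fold change 1.01 ± 0.16, adjusted p = 0.00906). Prkaca, a catalytic subunit gene of protein kinase A, fell (-0.54 ± 0.06, adjusted p = 0.00192), and the kinases Rps6ka5 (0.61, adjusted p = 0.0209) and Map2k7 (0.30, adjusted p = 0.0400) rose, all on the log2 scale. Atf5, Fbxw7 and Prkaca kept their calls whichever library was omitted; Creb3 and Mafk kept theirs in 2 of those 6 fits, Nfe2l1 and Map2k7 in 1 and Rps6ka5 in 3.

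Of 22 genes described as AP-1 targets, 21 were tested, 0 rose and 5 fell by edgeR's test (0 higher at an unadjusted p under 0.05, 0 rose by DESeq2 and 0 by limma-voom), with a median log2 fold change of -0.58, and the groups were lower without overlap for 11. Of all tested genes, 5.74% fell and 16.9% were lower without overlap, at a median of -0.008. The list summed to 976 to 1055 CPM in Rnf111+/- libraries and 1178 to 1593 CPM in wild-type libraries. Ccnd1, a cyclin of the G1 phase, was at 20.9 ± 2.64 CPM in Rnf111+/- ovaries and 33.1 ± 2.23 CPM in wild-type ovaries (SD, n = 3 each; log2 fold change -0.66, adjusted p = 0.0115). The matrix proteoglycan gene Dcn (-0.89, adjusted p = 0.0183) and the heme oxygenase gene Hmox1 (-0.76, adjusted p = 0.0300) also fell. Dcn is a stromal gene as well and stands in the stroma marker list. With single libraries omitted, Ccnd1 lost its call only without Rnf111+/- replicate 2 (adjusted p = 0.0565); Hmox1 kept its call in 3 of the 6 fits and Dcn in 2.

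Of 20 genes of the ovulatory response of granulosa cells, 17 were tested, 0 rose and 6 fell by edgeR's test (0 higher at an unadjusted p under 0.05, 0 rose by DESeq2 and 0 by limma-voom), with a median log2 fold change of -0.73; of all tested genes, 3.9% rose and 5.74% fell. Runx1, a transcription factor of that response, was at 64.6, 60.9 and 72.8 CPM in Rnf111+/- libraries, against 186, 204 and 211 CPM in wild-type libraries. These groups were far apart. The epidermal growth factor-like ligand gene Ereg was at 0.548, 0.868 and 0.340 CPM in Rnf111+/- libraries, against 1.67, 5.16 and 2.48 CPM in wild-type libraries (log2 fold change -2.40 ± 0.51, adjusted p = 0.0248), a pattern of low Rnf111+/- values that Fosl1 also had. The falls of Adcyap1 (-5.57) and Star (-0.84) completed the 4 of smallest p, as log2 fold changes. Runx1, Adcyap1 and Star kept their calls with every single omission, and Ereg in 2 of 6. The list summed to 1160 to 1405 CPM in Rnf111+/- libraries and 2381 to 2756 CPM in wild-type libraries.

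Tissue handling can induce immediate early and heat shock genes, and 14 heat shock genes were read beside them. In Rnf111+/- ovaries 0 rose and 1 fell by edgeR's test, against 3.9% and 5.74% of all tested genes. At an unadjusted p under 0.05, 0 were higher and 3 lower. DESeq2 called 0 rises and 2 falls, and limma-voom 0 rises and 1 fall. The groups were lower without overlap for 4 genes, against 16.9% of all tested genes. The gene that fell by edgeR's test was Hspd1 (log2 fold change -0.45, adjusted p = 0.0207). Its call held in 1 of 6 fits with a library omitted, the one without wild-type replicate 3. The list had a median log2 fold change of -0.17 and sums of 6652 to 7245 CPM in Rnf111+/- libraries and 7100 to 8101 CPM in wild-type libraries. The next 3 by p were Hspe1 (-0.20, adjusted p = 0.0925), Hspb8 (-1.16, adjusted p = 0.0927) and Hsp90ab1 (-0.17, adjusted p = 0.209), which did not pass, all as log2 fold changes. The fall of Hspb8 passed with DESeq2 (-1.15, adjusted p = 0.000461) and in edgeR's fit without wild-type replicate 3 (-0.65, adjusted p = 0.00169).

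Some marker lists of the cells of the ovary also differed between genotypes; their counts stand against 3.9% of all tested genes that rose and 5.74% that fell. Granulosa markers had 2 rises and 0 falls among 12, with sums of 6088 to 8960 CPM in Rnf111+/- libraries and 3212 to 7039 CPM in wild-type libraries, of which replicate 3 was the lowest. Oocyte markers had 10 rises and 0 falls among 15, at 389 to 494 CPM in Rnf111+/- libraries and 266 to 294 CPM in wild-type libraries. Theca markers had 1 rise and 1 fall among 9, at 8149 to 10193 and 11053 to 12013 CPM in Rnf111+/- and wild-type libraries, and luteal markers 0 rises and 2 falls among 10, at 6102 to 9026 and 2483 to 3754 CPM, so the luteal sum was higher in Rnf111+/- ovaries although no luteal marker rose. The theca sum was lower in Rnf111+/- ovaries, although 5 of the 9 theca markers had a log2 fold change above 0 (median 0.11). Lhcgr stands in both of these lists. Falls outnumbered rises in the lists of stroma (5 of 10, at 2393 to 2894 CPM in Rnf111+/- and 3613 to 4304 CPM in wild-type libraries), smooth muscle (3 of 9, at 778 to 1022 and 1228 to 1524 CPM), endothelium (6 of 10, at 324 to 373 and 442 to 515 CPM) and surface epithelium (5 of 10, with 1 rise, at 511 to 572 and 637 to 675 CPM), in the same order of genotypes. Immune markers had no call among 13 (280 to 367 CPM in Rnf111+/- and 252 to 407 CPM in wild-type libraries), and oviduct (8), erythrocyte (5) and adipocyte (5) markers had none among those tested. Erythrocyte markers summed to 47.0 to 172 CPM in Rnf111+/- libraries and 37.5 to 75.9 CPM in wild-type libraries, and adipocyte markers to 26.4 to 46.8 and 15.03 to 54.9 CPM. At least 1 count was present in every library for each granulosa, theca, luteal, stroma, smooth muscle, endothelium, immune, epithelium and oocyte marker, while Krt5, Slc4a1 and Lep, of the oviduct, erythrocyte and adipocyte lists, were at 0 in at least 1 library. In the lists without a rise by edgeR's test, 2 luteal markers and 1 stroma marker were higher at an unadjusted p under 0.05, DESeq2 called the same numbers as rises, limma-voom called 0, and the other such lists had 0 by each. The part of these shifts, and of the heat shock genes, in the changes of Fos, Fosl1 and Btg2 was not tested.

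Candidates for likeness to Fos and Fosl1 were tested genes whose mean reached 1 CPM. Placeholder symbols, such as Gm numbers and LOC, Rik or clone names, were left out. The candidates whose levels across the 6 libraries were most like those of Fos and Fosl1 were found by the root mean square difference of their centred log2 CPM profiles. For Fos these were Greb1l (a difference of 0.0746 on the log2 scale), Nr0b1, an orphan nuclear receptor gene of steroidogenic tissue (0.112), and Gab2, an adaptor of receptor signalling (0.120), from 13359 candidates. Greb1l was at 161, 237 and 252 CPM in Rnf111+/- libraries, against 99.4, 97.4 and 79.1 CPM in wild-type libraries, and followed the order of Fos in the Rnf111+/- libraries. For Fosl1 they were Bves (0.152), Medag (0.297) and the transferrin gene Trf (0.304). Bves, which encodes a membrane protein of striated muscle and epithelia, was at 3.86, 4.90 and 3.13 CPM in Rnf111+/- libraries, against 10.5, 13.5 and 22.7 CPM in wild-type libraries. Like Fosl1, Bves was highest in wild-type replicate 3 and lowest in Rnf111+/- replicate 3. The shared orders of Greb1l with Fos and of Bves with Fosl1 largely follow from choosing the nearest profiles over the same libraries.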

How the data were processed

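Total RNA of 6 ovaries was sequenced, and the authors deposited 1 table of raw read counts, genes in rows and libraries in columns. The submitters' processing notes name fastp (0.20.1), HISAT2 (2.1.0), HTSeq (0.11.2), DESeq2 (1.38.3) and build GRCm39; the sources used here give no roles, annotation or strand setting. All columns were matched to a sample and every row named a gene. The fits used edgeR (4.0.16, R 4.3.3): filterByExpr (minimum count 10, minimum total 15), TMM scaling and the robust quasi-likelihood test of genotype, with no covariate, adjusted by Benjamini-Hochberg over 16841 genes and called under 0.05. Standard errors are the absolute log2 fold change over the square root of F. The fits were tested on simulated data for the sign and size of planted changes. Those data held no outlying library like wild-type replicate 3. Within-library differences used log2 CPM with prior count 2 and an exact permutation test (scipy 1.17.1). Intervals of summed counts are exact (Clopper-Pearson, 95%); they and the floor of 3 counts (0.0760 to 0.0784 CPM) cover counting error only. The closest replicates, wild-type 1 and 2, differed beyond counting noise (chi-square over its degrees of freedom 12.4), and all 6 libraries were used as separate samples.

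Named genes are the 10 genes and Rnf111, up to 4 members of smallest p of each other list except the cell type markers, and the 3 genes nearest in profile to Fos and to Fosl1; genes that overlap the 10 are given beside them, and 1 gene of the AP-1 target list is not reported here. The genes, the lists (bZIP partners, other immediate early genes, upstream regulators, AP-1 targets, ovulatory response, heat shock and cell type markers) and the tests were chosen with earlier results of these data known. Exon lengths and overlaps come from GENCODE M21 (GRCm38), a build earlier than that of the counts, and promoter windows from RefSeq.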

Additional observations from a re-analysis of the deposited data

How the results depend on the processing

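The alternatives were 2 other scalings in edgeR (DESeq2's size factors and upper quartile), all genes with a count, a stricter low-count filter, DESeq2 (1.42.0), limma-voom (limma 3.58.1), the replicate number as a block and each library left out. Genes called, 1623 in all with 657 rises and 966 falls, numbered 2532 with 1125 rises by DESeq2. With 1 library left out, called genes numbered 530 (without Rnf111+/- replicate 2) to 2795 (without wild-type replicate 3), rises 224 to 1273 and falls 297 to 1522. Of the 10 genes, 1 to 2 were called with 1 library left out, 1 to 2 of them rises and 0 to 1 falls. Rises numbered 2, Fos and Jun, by DESeq2 and with the replicate block. Falls numbered 1 with limma-voom, without a filter, with the stricter filter (which removed Fosl1) and with the replicate block. Fos kept its call in all 13 fits, 6 with 1 library left out and 7 others. Btg2 lost its call without a filter (adjusted p = 0.0841). With the replicate block, Fosl1 (log2 fold change -2.16, adjusted p = 0.0617) and Ccn2 (1.71, adjusted p = 0.120) lost theirs.

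Rnf111 lost its call with upper-quartile scaling (log2 fold change -0.24, adjusted p = 0.0602), without a filter (-0.27, 0.0762) and with the replicate block (-0.27, 0.0653), and with 1 library left out (-0.27 to -0.26) except without wild-type replicate 3 (0.0421). The sign turned without Rnf111+/- replicate 1 for Fosb (-0.29), Egr1 (-0.017) and Junb (-0.058), and for Junb also without Rnf111+/- replicate 3 (-0.077) and wild-type replicate 2 (-0.028). With each library left out, Fosb ranged from -0.29 to 1.05, Egr1 from -0.017 to 0.31 and Junb from -0.077 to 0.22. The differences of Fos from the other 9 genes kept their direction with prior counts of 0.5 and 5 and with each library left out. Pairing by number leaves each mean difference the same, so it could not change a direction. Of 312 refits of the genes of smallest p named from the other lists, 249 kept the side of the threshold, 61 lost a call, 2 gained one and 0 changed sign. The causes were not tested.

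The replicate numbers were not treated as pairs: deviations of same-numbered libraries correlated across genes at 0.0120, 0.00568 and 0.1001, and Rnf111+/- replicates 1 and 2 correlated better with another number. With the number as a block, 1626 genes were called. Depth limits Fosl1, with 8 to 14 counts per Rnf111+/- library.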
